A study of Mus musculus with 6 samples.

Results

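Genes for the vacuolar ATPase (V-ATPase), the cathepsins and the lysosome-associated membrane proteins (LAMP) were examined in mouse pancreatic islets with and without the free fatty acid receptor gene Ffar3. The genes were taken by symbol from the deposited tables: subunits of the V1 and V0 sectors (symbols starting with Atp6v0 or Atp6v1), cathepsins (Cts followed by a single letter or digit) and Lamp genes. This gave 47 of 23179 rows, namely 22 V-ATPase rows, 22 cathepsin rows and 3 Lamp rows. Of these, 29 averaged 1 FPKM or more over the 6 libraries and were tested: 9 V1 rows, 8 V0 rows, 10 cathepsins and 2 Lamp genes. FPKM stands for fragments scaled by transcript length and by a factor of the library. The remaining 18 rows lay under that level.

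The 2 groups were 3 RNA sequencing libraries of Ffar3 knockout (KO) male mice and 3 of wild-type (WT) male mice. All mice were aged 10 to 14 weeks and labelled as C57BL/6J. Each library came from islets picked out of a pooled isolation from 2 pancreata, and the replicates are described as biological. The knockout is not labelled as limited to a cell type, and no treatment is given.

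The V-ATPase is a proton pump of the membranes of lysosomes, endosomes and secretory granules. Its V1 sector, in the cytosol, hydrolyses ATP, and its V0 sector, in the membrane, carries protons across. In beta cells the pump acidifies the insulin granule, where prohormone is cleaved. Cathepsins are proteases that mostly work in the acid lumen of lysosomes, and LAMP proteins coat the lysosomal membrane. Many lysosomal genes carry the E-box core CACGTG near their start, which is read by TFEB, TFE3 and related factors.

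Promoter sequences from RefSeq (build GRCm38.p6), running 250 bases before to 50 bases after the annotated start, were found for 22 of the 29 tested genes, with 26 promoters between them. Atp6v1b2, Ctsb, Ctsh, Atp6v0a2, Atp6v1c1, Atp6v1g1 and Atp6v1h were not among those matched. CACGTG, which reads the same on both strands, was in 9 of the 26 promoters (34.6%), against 7.15% of all 32851 promoters of the same length. The longer form TCACGTGA, every copy of which holds a CACGTG, was in 5 (19.2%), against 0.974% of all promoters. The genes with CACGTG anywhere in a promoter were Atp6v1a, Atp6v0b, Atp6v0d1, Atp6v0e, Ctsa, Ctsd, Ctsf, Ctsl and Lamp1. Stretches upstream of 4 RefSeq starts follow 5′ to 3′, in capitals where CACGTG stands. Bases that the GENCODE M21 annotation puts in an exon are left out. Atp6v1a (chr16:44139306-44139461, minus strand) is a V1 gene that rose, and its single CACGTG lies within a TCACGTGA. In GENCODE M21 the gene starts further out, at 44139705, so there the Atp6v1a stretch is intron and not upstream. Atp6v0b (chr4:117887334-117887579, minus strand) and Lamp1 (chr8:13158911-13159160, plus strand) did not pass the test and hold 2 and 4 copies. Ctso (chr3:81932351-81932600, plus strand) was a gene that fell, with no copy in these letters.
Atp6v1a: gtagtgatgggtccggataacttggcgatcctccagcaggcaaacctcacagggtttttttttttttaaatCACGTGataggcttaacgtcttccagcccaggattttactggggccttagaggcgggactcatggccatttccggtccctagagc
Atp6v0b: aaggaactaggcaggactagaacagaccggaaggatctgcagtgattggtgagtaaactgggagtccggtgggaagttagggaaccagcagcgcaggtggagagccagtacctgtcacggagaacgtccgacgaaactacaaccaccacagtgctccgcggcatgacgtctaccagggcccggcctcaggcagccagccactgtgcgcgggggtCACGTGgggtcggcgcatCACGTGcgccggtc
Lamp1: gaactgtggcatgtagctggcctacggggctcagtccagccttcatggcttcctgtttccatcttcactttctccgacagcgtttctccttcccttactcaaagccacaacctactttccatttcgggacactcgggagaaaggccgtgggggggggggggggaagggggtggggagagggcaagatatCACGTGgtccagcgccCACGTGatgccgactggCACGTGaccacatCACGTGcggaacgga
Ctso: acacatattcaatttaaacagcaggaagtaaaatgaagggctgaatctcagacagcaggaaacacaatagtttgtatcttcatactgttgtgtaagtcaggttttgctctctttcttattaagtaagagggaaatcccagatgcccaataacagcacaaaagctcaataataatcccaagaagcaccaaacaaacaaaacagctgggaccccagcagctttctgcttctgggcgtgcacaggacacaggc

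Across the series, Ffar3 was at 0, 0 and 0.105 FPKM in KO replicates 1 to 3 and at 4.69 to 6.68 FPKM in WT libraries. Total depth is unknown. From the spacing of the lowest values, fragments behind 1 FPKM were 119%, 89.4% and 59.5% of those of WT replicate 1 in KO replicates 1, 2 and 3, against 100% to 114% in WT libraries, so KO replicate 3 is the least precise. The KO libraries stood apart from each other in the genes of other cell types. Summed FPKM of 21 acinar genes, mostly of enzymes, was 24286, 243863 and 519244 in KO replicates 1, 2 and 3, against 25940 to 40720 in WT libraries. Amy2b alone among them was listed lower in KO replicates 2 and 3. It stood at 26.9, 0 and 0 FPKM in KO libraries, against 23.6 to 62.0 FPKM in WT libraries. Endocrine markers other than insulin genes summed to 69662, 52725 and 55134 in KO libraries, against 78570 to 83005 in WT libraries. All libraries list Ins2 at 0, and all but KO replicates 2 and 3 list Ins1 at 0. For islets these insulin values are implausible, so a listed 0, that of Amy2b included, cannot be read as absent RNA. The difference was tested for every one of the 11669 genes that averaged 1 FPKM or more, by limma on log2(FPKM + 1), with Benjamini-Hochberg adjusted p under 0.05 counted as called. Of these, 4657 (39.9%) were called, 20.3% higher and 19.6% lower in KO, with a median log2 difference of -0.01. The number called was 2481 without WT replicate 1, 2507 without WT replicate 3 and 3041 with KO replicate 1 as the only KO library.

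Of the 29 genes, 5 rose in KO islets (Atp6v1a, Atp6v1b2, Ctsb, Ctsh and Ctsc) and 2 fell (Ctso and Atp6v0e2), and 22 did not pass the test. That is 24.1% called, against 39.9% of all genes. The median log2 difference was 0.01, and 23 of 29 lay within 0.3 of 0 on the log2 scale. In 7 genes every KO library lay above every WT library and in 5 every KO library lay below, while 17 overlapped. Among all genes tested, 56.3% did not overlap, with KO above WT in 27.8% and below in 28.5%. The counts moved with the libraries. Without KO replicate 2, or without any single WT library, 3 were higher and 1 was lower. Without KO replicate 3 there were 5 higher and 1 lower, and without KO replicate 1 there were 6 and 5. Calls over all 11669 genes moved too, to 5727, 3461 and 4120 without KO replicates 1, 2 and 3. They were 2481, 3249 and 2507 without WT replicates 1, 2 and 3, against 4657 with every library. With KO replicate 1, whose acinar sum was below the WT range, as the only KO library, 5 were higher and 0 lower: Atp6v1a, Atp6v1b2, Ctsb, Ctsh and Ctsz. In that comparison 26.1% of all genes were called, 15.2% higher and 10.9% lower, and all 7 genes named above kept their sign. With the libraries rescaled to equal sums outside acinar and insulin genes, 1 was higher (Ctsc) and 1 lower (Ctso). That scaling moved the median of all genes by under 0.1 on the log2 scale, and 2687 of all genes were then called. Among genes with CACGTG in a promoter, 1 of 9 was called (Atp6v1a), against 3 of the 13 with a promoter and no CACGTG. Of the 7 with no matched promoter, 3 were called (Atp6v1b2, Ctsb and Ctsh), and whether these hold CACGTG is not known here. In whole islets, a change in the number of cells of a type and a change in RNA per cell cannot be told apart.

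**Figure D1:**
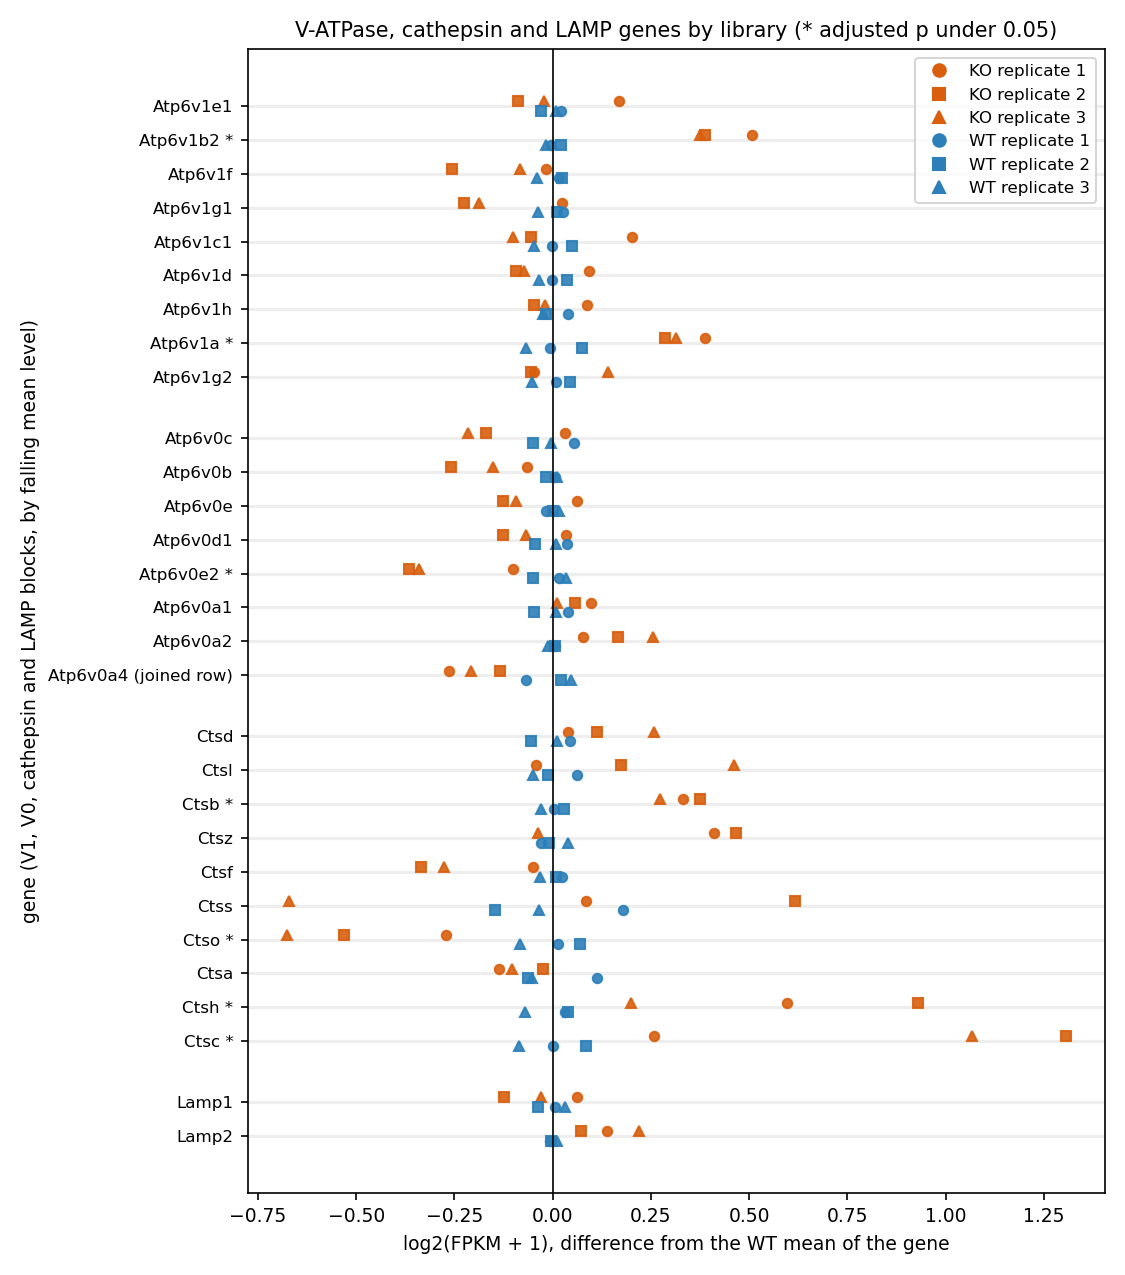
Each row is 1 of the 29 tested genes, and each point is a library, placed by its log2(FPKM + 1) minus the mean of the 3 WT libraries (orange, KO; blue, WT; shapes, replicates). Atp6v1b2, Atp6v1a and Ctsb have all KO points to the right of all WT points, Ctso and Atp6v0e2 have them to the left, and KO points of Ctss, Ctsh and Ctsc are spread widely.

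Atp6v1a encodes the A subunit of V1, which binds and hydrolyses ATP. On GRCm38 the gene lies at chr16:44085402-44139705 on the minus strand. Its level was 50.2, 46.7 and 47.6 FPKM in KO replicates 1, 2 and 3, against 37.9, 40.2 and 36.3 FPKM in WT replicates 1, 2 and 3. Every KO library was above the highest WT library, and the KO values lay close together. The means were 48.2 ± 1.81 FPKM in KO and 38.1 ± 1.94 FPKM in WT (SD, n = 3 each), a log2 difference of 0.33 (SE 0.06, limma adjusted p = 0.0067). Atp6v1b2 encodes the B subunit, which alternates with A in the ring of V1 (chr8:69088646-69113711, plus strand). It was at 179.9, 165.5 and 164.2 FPKM in KO libraries, against 126.0, 128.2 and 124.8 FPKM in WT libraries. The WT libraries were nearly level and all 3 KO libraries stood well above them. The means were 170 ± 8.68 FPKM in KO and 126 ± 1.73 FPKM in WT (SD, n = 3 each), a log2 difference of 0.42 (SE 0.06, limma adjusted p = 0.0036). Leaving out any single library kept both genes called, with adjusted p up to 0.036 for Atp6v1a and 0.0255 for Atp6v1b2. Equal sums outside acinar and insulin genes ended both calls, with a log2 difference of 0.26 for Atp6v1a (adjusted p = 0.131) and 0.35 for Atp6v1b2 (adjusted p = 0.0743).

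The other 7 V1 genes did not pass the test and had log2 differences between -0.13 and 0.02. They encode the peripheral stalks (Atp6v1e1, Atp6v1g1 and Atp6v1g2), the central shaft (Atp6v1d and Atp6v1f) and the C and H subunits (Atp6v1c1 and Atp6v1h). Atp6v1e1, the V1 gene of the highest mean level, was at 179.0, 149.8 and 156.7 FPKM in KO libraries, against 161.5, 156.0 and 160.2 FPKM in WT libraries. Its KO libraries spread to both sides of the WT libraries. Atp6v1f was at 141.5, 119.7 and 135.0 FPKM in KO libraries, against 144.8, 145.5 and 139.3 FPKM in WT libraries, where KO replicate 1 lay within the WT range and the other KO libraries below it. In 6 of these 7 genes KO replicate 1 was the highest KO library, while Atp6v1g2, the neuronal form of G in mammals, was near 2 FPKM throughout.

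Within V1, the summed FPKM of Atp6v1a and Atp6v1b2 made up 25.9%, 27.5% and 26.6% of the V1 sum in KO replicates 1, 2 and 3, against 20.73%, 21.29% and 20.96% in WT libraries. The difference of the mean shares was 5.68 percentage points, and 4.92 with KO replicate 1 as the only KO library. A share within a library does not depend on how libraries are scaled to each other. This share, however, joins the only V1 genes that were called. Its rise in KO libraries follows from that choice and is no separate support for the calls. The other V1 rows summed to 658, 559 and 585 FPKM in KO libraries, against 627, 623 and 608 FPKM in WT libraries, with KO replicate 1 above and the other KO libraries below the WT range. The level of Atp6v1b2 was 3.58, 3.54 and 3.45 times that of Atp6v1a in KO libraries, against 3.32, 3.19 and 3.44 times in WT libraries.

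**Figure D2:**
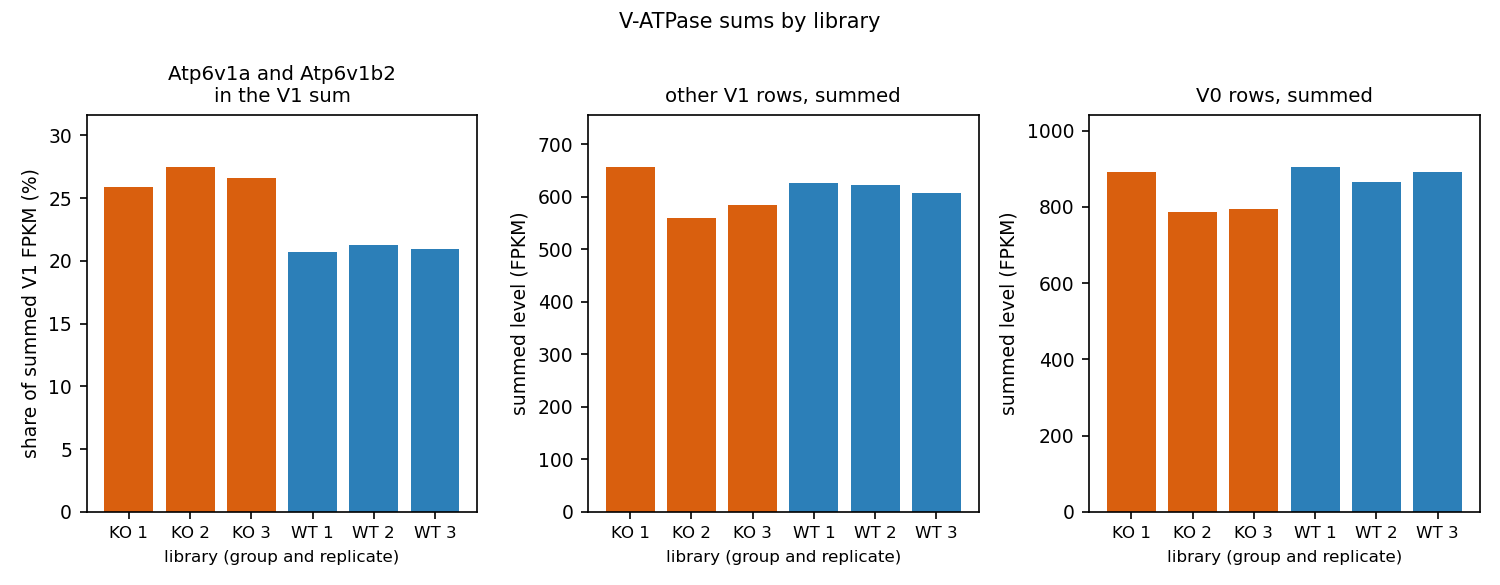
Bars give the share of summed V1 FPKM held by Atp6v1a and Atp6v1b2 (left, percent), the summed FPKM of the other V1 rows (middle) and the summed FPKM of the V0 rows (right) in each library, KO in orange and WT in blue. The share is 25.9% to 27.5% in KO libraries and 20.7% to 21.3% in WT libraries, while the other sums overlap between the groups.

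In V0, 1 of 8 genes was called. Atp6v0e2, a form of the small e subunit (chr6:48537615-48541801, plus strand), was at 73.8, 61.3 and 62.4 FPKM in KO libraries, against 80.2, 76.5 and 81.2 FPKM in WT libraries. All KO libraries were below all WT libraries, with KO replicate 1 the nearest. The log2 difference was -0.27 (SE 0.08, limma adjusted p = 0.037). The call rested on several libraries: adjusted p was 0.1 without KO replicate 2, 0.0885 without KO replicate 3, 0.116 without WT replicate 1, 0.071 without WT replicate 2 and 0.12 without WT replicate 3. It was 0.0529 with no filter on mean FPKM and 0.104 with equal sums outside acinar and insulin genes, where the log2 difference was -0.34. With KO replicate 1 as the only KO library the log2 difference was -0.10 (adjusted p = 0.263). The other e gene, Atp6v0e, was at 113.7, 99.7 and 102.0 FPKM in KO libraries, against 107.7, 109.0 and 110.1 FPKM in WT libraries, and its groups overlapped. Atp6v0e held 60.6%, 61.9% and 62.0% of the summed FPKM of the e genes in KO libraries, against 57.3%, 58.7% and 57.6% in WT libraries, so all KO shares were above all WT shares. The rest of that sum is Atp6v0e2, the called gene, so the share is no separate support for its call.

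Atp6v0c, which encodes the proteolipid of the rotating membrane ring, had the highest mean level of all 47 rows. It was at 375.8, 326.8 and 316.9 FPKM in KO libraries, against 382.2, 355.5 and 366.5 FPKM in WT libraries. KO replicate 1 lay within the WT range and the other KO libraries below it, and the log2 difference was -0.12 (limma adjusted p = 0.33). Atp6v0b encodes a further subunit of that ring. It was at 167.7, 146.4 and 157.8 FPKM in KO libraries, against 176.1, 173.4 and 176.7 FPKM in WT libraries. All KO libraries were below all WT libraries, and the difference did not pass the test (log2 difference -0.16, SE 0.07, limma adjusted p = 0.11). Atp6v0d1, which joins the ring to the shaft, overlapped between the groups.

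The a subunit holds the proton path and differs between membranes. Atp6v0a1 was at 36.6 to 38.9 FPKM in KO libraries and 35.1 to 37.3 FPKM in WT libraries, and overlapped. Atp6v0a2, known from the Golgi, was at 19.0, 20.2 and 21.6 FPKM in KO libraries, against 17.998, 18.01 and 17.77 FPKM in WT libraries. Each KO library was above each WT library, and the difference did not pass the test (log2 difference 0.17, limma adjusted p = 0.064). The row that joins Atp6v0a4, known from kidney, with D630045J12Rik was at 1.52, 1.75 and 1.62 FPKM in KO libraries, against 1.89, 2.07 and 2.12 FPKM in WT libraries (log2 difference -0.20, limma adjusted p = 0.11), and its value cannot be assigned to either gene. Tcirg1, which encodes the a3 form and does not carry an Atp6v symbol, was at 3.45, 6.39 and 3.49 FPKM in KO libraries, against 3.56, 3.20 and 3.45 FPKM in WT libraries. KO replicate 2 stood apart for Tcirg1 and the remaining libraries were level.

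**Figure D3:**
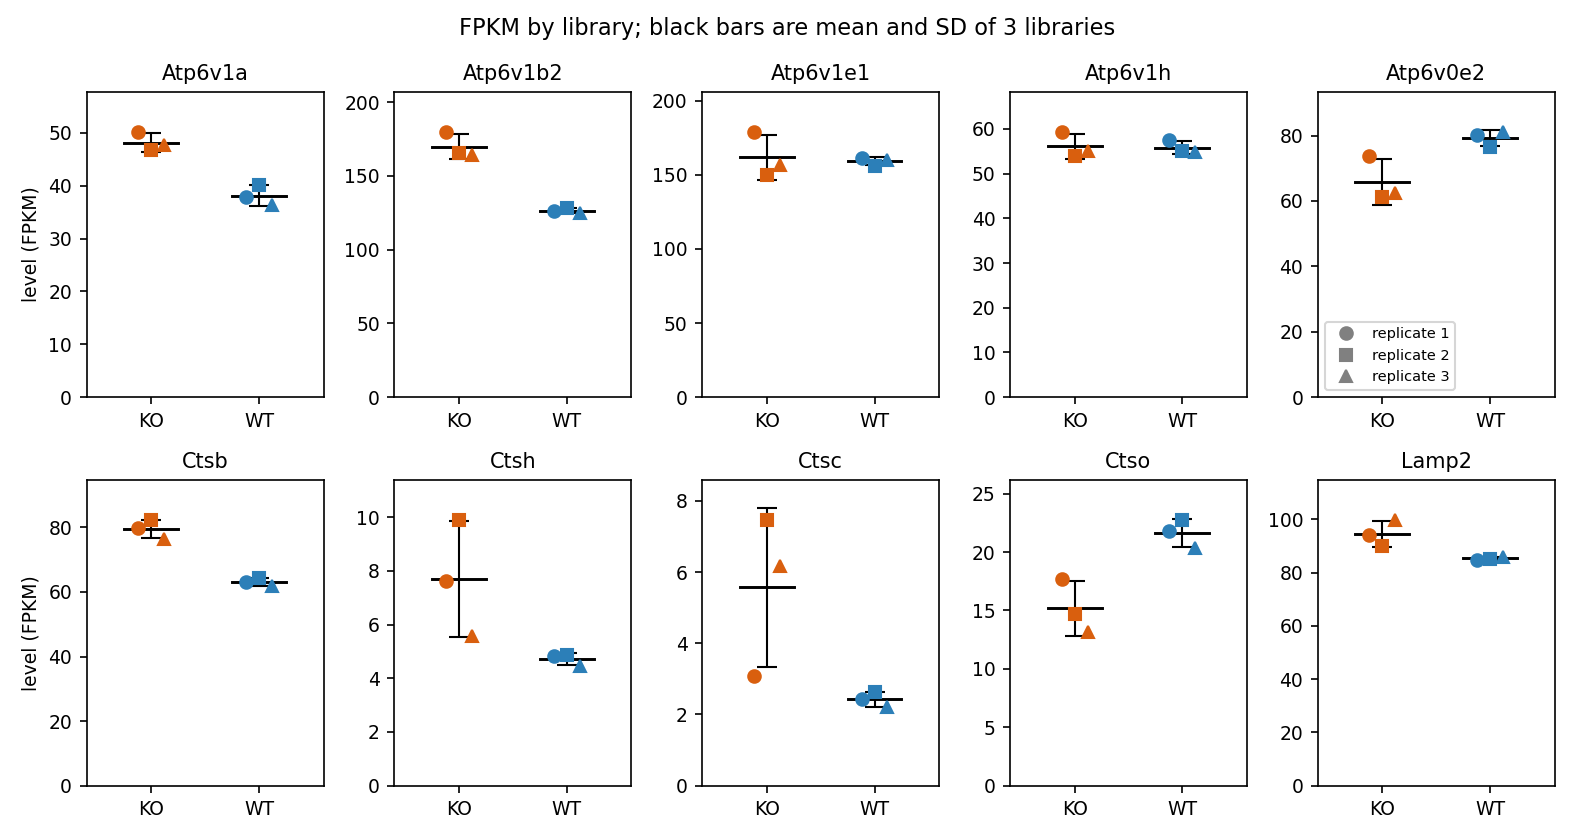
Levels in FPKM of 10 genes, each library a point (shapes, replicates) with the mean and SD of 3 libraries in black, KO left and WT right. KO points of Atp6v1a, Atp6v1b2, Ctsb, Ctsh, Ctsc and Lamp2 lie above all WT points, those of Ctso and Atp6v0e2 lie below, and those of Atp6v1e1 and Atp6v1h overlap with WT.

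Among the 10 cathepsins 3 rose, 1 fell and 6 did not pass the test, with a median log2 difference of 0.17. The share called, 40%, was that of all genes (39.9%). Of the 10, 8 are cysteine proteases, the called genes among them. Ctsb encodes cathepsin B, an abundant lysosomal endopeptidase and carboxypeptidase (chr14:63122462-63145923, plus strand). It was at 79.7, 82.2 and 76.5 FPKM in KO libraries, against 63.2, 64.4 and 61.8 FPKM in WT libraries. The groups did not overlap, and the spread within each was small. The means were 79.5 ± 2.87 FPKM in KO and 63.1 ± 1.28 FPKM in WT (SD, n = 3 each), a log2 difference of 0.33 (SE 0.05, limma adjusted p = 0.0051). The call held without any single library (adjusted p up to 0.031) and with KO replicate 1 as the only KO library (adjusted p = 0.013), and ended with equal sums outside acinar and insulin genes (log2 difference 0.255, adjusted p = 0.141). Ctsb shares exon bases with Fdft1, the squalene synthase gene on the opposite strand. Fdft1 was at 48.6, 47.4 and 51.0 FPKM in KO libraries, against 28.3, 35.1 and 29.4 FPKM in WT libraries, and was called higher (log2 difference 0.65). The strand setting of the counting is not given in the sources used here. Reads of the shared bases thus cannot be told apart, and the value of Ctsb is uncertain to that extent. In all, 11 tested genes share exon bases with a gene on the opposite strand, and the same limit applies to each. Besides Ctsb they are Atp6v0a2, Atp6v0a4, Atp6v0b, Atp6v1e1, Atp6v1g2, Atp6v1h, Ctsa, Ctsl, Ctsz and Lamp1.

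Ctso encodes cathepsin O, a little studied cysteine protease (chr3:81932601-81956725, plus strand). It was at 17.7, 14.7 and 13.1 FPKM in KO libraries, against 21.8, 22.7 and 20.3 FPKM in WT libraries. All KO libraries were below all WT libraries, with KO replicate 1 the nearest. The means were 15.2 ± 2.33 FPKM in KO and 21.6 ± 1.20 FPKM in WT (SD, n = 3 each), a log2 difference of -0.49 (SE 0.11, limma adjusted p = 0.012). Without any single library the adjusted p was at most 0.049. With KO replicate 1 as the only KO library the log2 difference was -0.27 (adjusted p = 0.0528).

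Ctsh and Ctsc were the called genes with the widest spread. Ctsh, cathepsin H, is an aminopeptidase (chr9:90054152-90076089, plus strand), and was at 7.64, 9.88 and 5.56 FPKM in KO libraries, against 4.84, 4.87 and 4.44 FPKM in WT libraries. Ctsc, cathepsin C or dipeptidyl peptidase I, activates the granule proteases of immune cells (chr7:88278085-88310888, plus strand), and was at 3.09, 7.46 and 6.17 FPKM in KO libraries, against 2.42, 2.63 and 2.22 FPKM in WT libraries. In both genes every KO library was above every WT library, KO replicate 2 was highest, and the nearest KO library was replicate 3 for Ctsh and replicate 1 for Ctsc. The log2 difference of Ctsh was 0.57 (SE 0.17, limma adjusted p = 0.034). That of Ctsc was 0.88 (SE 0.25, limma adjusted p = 0.030). The call of Ctsh ended without KO replicate 1 (0.0553), KO replicate 2 (0.0625), WT replicate 1 (0.0916), WT replicate 2 (0.0813) or WT replicate 3 (0.11), all adjusted p. Ctsh also missed the threshold with no filter (0.0643) and with equal sums outside acinar and insulin genes (0.108, at a log2 difference of 0.52). The call of Ctsc ended without KO replicate 2 (0.0789), KO replicate 3 (0.0741), WT replicate 1 (0.089), WT replicate 2 (0.0708) or WT replicate 3 (0.0972), with no filter (0.0581) and with KO replicate 1 as the only KO library (0.115), all adjusted p.

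Markers of immune cells differed between the same libraries. The 16 macrophage markers, none at 0 in every library, summed to 159, 260 and 90.3 FPKM in KO replicates 1, 2 and 3, against 134, 115 and 131 FPKM in WT libraries. The defining markers did not move together: Lyz2 was at 32.9, 94.8 and 10.3 FPKM in KO libraries, against 11.5, 9.51 and 9.92 FPKM in WT libraries, while C1qa was at 50.1, 42.5 and 37.2 FPKM in KO libraries, against 57.3, 51.5 and 58.8 FPKM in WT libraries. The 10 lymphocyte markers summed to 84.3, 145 and 16.1 FPKM in KO libraries, against 6.80, 7.94 and 6.74 FPKM in WT libraries. The 8 duct markers summed to 305, 364 and 360 FPKM in KO libraries, against 246, 240 and 232 FPKM in WT libraries. Every KO library was above every WT library for 4 of them and below for 1. Epcam and Krt7, the largest, went opposite ways, with Krt7 lower in KO. Krt19 was at 3.35, 23.3 and 30.8 FPKM in KO libraries, against 0.825 to 1.12 FPKM in WT libraries. Muc1 was at 2.42, 19.8 and 36.2 FPKM in KO libraries, against 2.35 to 3.80 FPKM in WT libraries. Neutrophil markers summed to under 1 FPKM in every library, with Elane, Ngp and Camp at 0 throughout. KO replicate 2 was the highest library for the summed macrophage and lymphocyte markers and for Ctsb, Ctsh, Ctsc, Ctss and Ctsz. Among KO libraries both sums were lowest in replicate 3, as were Ctsb, Ctsh, Ctss and Ctsz. Ctsc was not, at 6.17 FPKM in KO replicate 3 and 3.09 FPKM in KO replicate 1. The part of these cells in those levels was not tested.

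Ctss, cathepsin S of antigen-presenting cells, was at 24.9, 36.3 and 14.3 FPKM in KO libraries, against 26.6, 21.01 and 22.8 FPKM in WT libraries. The KO libraries lay on both sides of the WT range, in the order of their macrophage sums, and the log2 difference was 0.01 (SE 0.29, limma adjusted p = 0.98). Ctsz, cathepsin Z, a carboxypeptidase, was at 45.4, 47.2 and 33.0 FPKM in KO libraries, against 33.2, 33.7 and 34.8 FPKM in WT libraries. KO replicate 3 was just below the WT range and the other KO libraries well above it. The log2 difference of Ctsz was 0.28 (limma adjusted p = 0.12), and 0.44 without KO replicate 3 (adjusted p = 0.0045). Exons of Ctsz share bases with Nelfcd on the opposite strand, listed in the files as Th1l, which was at 8.13, 7.54 and 7.49 FPKM in KO libraries, against 10.9, 10.2 and 10.8 FPKM in WT libraries.

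**Figure D4:**
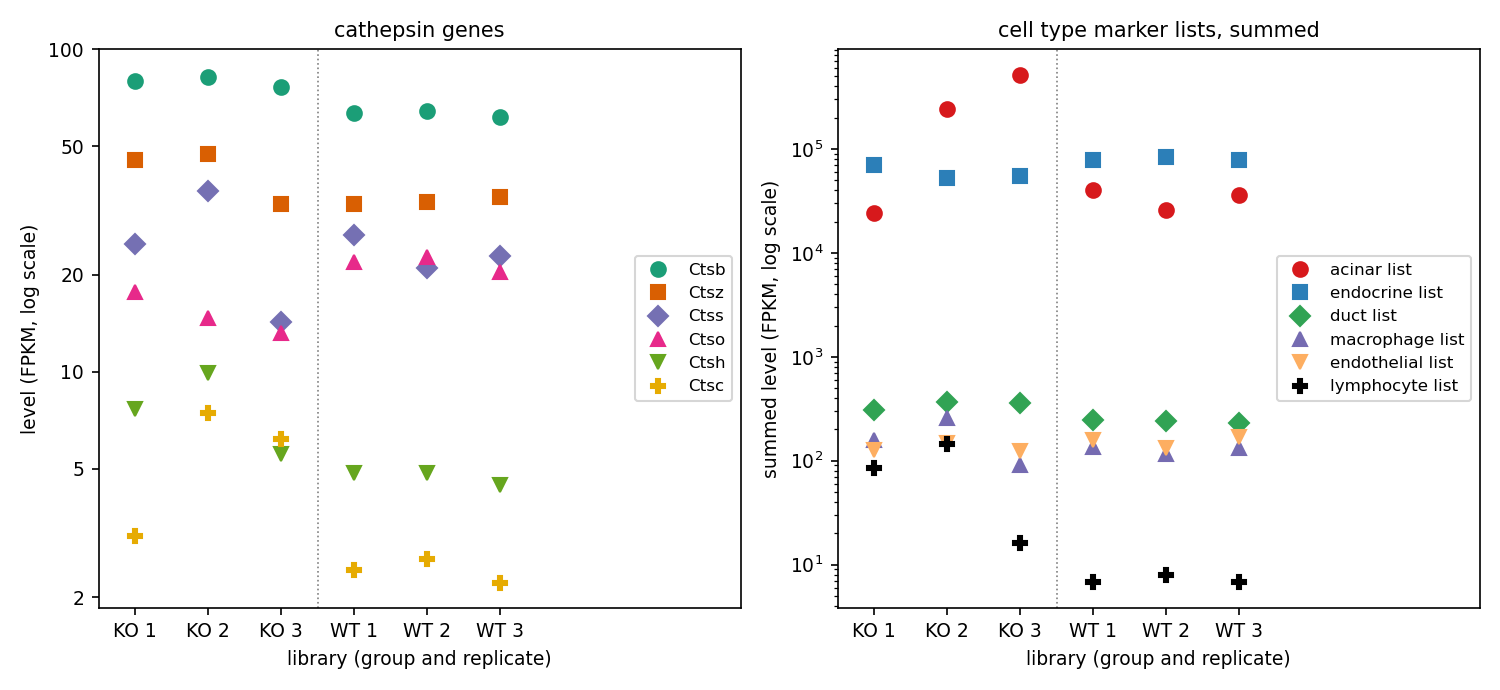
Left, levels of 6 cathepsin genes by library (FPKM, log scale). Right, summed FPKM of 6 cell type marker lists (log scale), with KO libraries left of the dotted line and WT libraries right of it. KO replicate 2 is highest for Ctss, Ctsh and Ctsc and for the macrophage and lymphocyte lists, whereas the acinar list is highest in KO replicate 3.

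The cathepsins of highest mean level were Ctsd, Ctsl and Ctsb. Ctsd, the main lysosomal aspartic protease, was at 158.4, 166.9 and 184.6 FPKM in KO libraries, against 159.0, 148.3 and 155.5 FPKM in WT libraries. Ctsl, cathepsin L, a cysteine endopeptidase, was at 101.4, 118.0 and 144.3 FPKM in KO libraries, against 109.0, 103.6 and 100.8 FPKM in WT libraries. In both, KO replicate 3 was highest, KO replicate 1 lay within the WT range, and the test was not passed (log2 differences 0.14 and 0.20, limma adjusted p = 0.19 and 0.23). The 2 genes share bases with predicted genes on the same strand. Without KO replicate 1, Ctsl was called higher (adjusted p = 0.0318). Ctsf, cathepsin F, was at 32.1, 26.2 and 27.3 FPKM in KO libraries, against 33.8, 33.4 and 32.5 FPKM in WT libraries. All its KO libraries were below all WT libraries, with an adjusted p of 0.066 over all libraries and of 0.0049 without KO replicate 1. Ctsa, a serine carboxypeptidase that protects beta-galactosidase and neuraminidase, overlapped between the groups at 16.8 to 18.2 FPKM in KO libraries and 17.7 to 20.1 FPKM in WT libraries.

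Neither Lamp gene was called. Lamp1 (chr8:13159161-13175338, plus strand) was at 306.8, 269.9 and 287.8 FPKM in KO libraries, against 295.3, 286.4 and 300.3 FPKM in WT libraries. The KO libraries spanned the WT range, and the log2 difference was -0.03 (SE 0.08, limma adjusted p = 0.77). Lamp2, needed for the fusion of autophagosomes with lysosomes, was at 94.1, 89.8 and 99.6 FPKM in KO libraries, against 84.9, 85.1 and 85.9 FPKM in WT libraries. Every KO library was above every WT library, and the difference did not pass the test (log2 difference 0.14, SE 0.06, limma adjusted p = 0.09).

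Of the 18 rows under 1 FPKM, 10 were listed at 0 in all libraries and 8 had a value above 0 in at least 1, and none was tested. Just inside the limit were Atp6v1g2 and the joined Atp6v0a4 row, described above. Just outside it was Ctse, cathepsin E, an aspartic protease of epithelial and immune cells, at 0.326, 0.641 and 0.591 FPKM in KO libraries, against 0.0614, 0.019 and 0 FPKM in WT libraries. Ctsk, the collagenase of osteoclasts, was at 0.155, 0.451 and 0.207 FPKM in KO libraries, against 0.280, 0.346 and 0.0813 FPKM in WT libraries, and overlapped. Ctsw, known from cytotoxic lymphocytes, was at 0.146, 0.626 and 0.0586 FPKM in KO libraries, against 0, 0.0323 and 0.0304 FPKM in WT libraries. Atp6v0d2, the osteoclast form of the d subunit, was at 0.0882, 0.0386 and 0.029 FPKM in KO libraries and was listed at 0 in every WT library. Every KO library was thus above every WT library for Ctse, Ctsw and Atp6v0d2, at levels worth few fragments.

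Further genes of the lysosome were read from 7 lists, with 164 distinct genes tested, of which 32 were called higher and 31 lower (median log2 difference -0.00). That is 38.4% called, close to the 39.9% of all genes (20.3% higher and 19.6% lower). By list the share called was 58.3% for other V-ATPase genes, 43.9% for hydrolases, 30% for membrane genes, 26.9% for sorting genes, 40.9% for signalling genes, 42.3% for autophagy genes and 28.6% for cathepsin inhibitors. Other V-ATPase genes, meaning assembly factors, accessory subunits and partners, had 1 of 12 called higher and 6 lower (median -0.19). Rogdi, a partner of the pump, was lower in KO at 32.4 ± 0.784 FPKM, against 40.6 ± 0.792 FPKM in WT (SD, n = 3 each). Oxr1, which binds V1, was lower in KO at 23.3 ± 2.61 FPKM, against 36.1 ± 1.62 FPKM in WT. Tmem199, a V-ATPase assembly factor, and Wdr7, a rabconnectin, were also called lower, at log2 differences of -0.55 and -0.31. Both lost the call without single WT libraries, at adjusted p of up to 0.0614 for Tmem199 and 0.075 for Wdr7, and with KO replicate 1 as the only KO library. The count of lower genes in this list was 2 without any single WT library. Lysosomal hydrolases, the enzymes that degrade lipids, glycans and proteins, had 3 of 41 higher and 15 lower (median -0.10). Sgsh, heparan sulphamidase, was lower in KO at 2.13 ± 0.118 FPKM, against 3.80 ± 0.192 FPKM in WT. Smpd1, acid sphingomyelinase, was lower in KO at 28.8 ± 4.45 FPKM, against 40.9 ± 1.81 FPKM in WT. Fuca1, a fucosidase, was lower at 19.3 ± 0.612 FPKM, against 22.8 ± 0.289 FPKM in WT, at a log2 difference of -0.23. That call ended with equal sums outside acinar and insulin genes, where the log2 difference was -0.30 (adjusted p = 0.0747), and with KO replicate 1 as the only KO library, where it was -0.19 (adjusted p = 0.0722). Acp5, the tartrate-resistant phosphatase of osteoclasts and macrophages, was higher in KO at 3.00, 6.77 and 2.68 FPKM, against 0.904, 0.948 and 1.09 FPKM in WT. The count of lower hydrolases was 7 without KO replicate 2 and 9 without KO replicate 3. It was 5 without WT replicate 1, 7 without WT replicate 2 and 3 without WT replicate 3. Lower calls over all genes fell as well, from 2289 to 1597, 1929, 1100, 1494 and 1110 in the same order. The count of higher hydrolases was 6 without KO replicate 3 and 1 without WT replicate 3. Higher calls over all genes were 2191 and 1397 there, against 2368 with every library. With KO replicate 1 as the only KO library, 2 other V-ATPase genes and 2 hydrolases were lower. With equal sums outside acinar and insulin genes, 3 hydrolases and 4 other V-ATPase genes were lower, and 1487 of all genes.

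Genes of the lysosomal membrane and its transporters had 6 of 30 higher and 3 lower (median 0.03). Npc1, the cholesterol exporter, was higher in KO at 11.0 ± 0.783 FPKM, against 5.86 ± 0.155 FPKM in WT (SD, n = 3 each). Lmbrd1, of lysosomal cobalamin export, was higher in KO at 21.5 ± 1.41 FPKM, against 13.3 ± 0.558 FPKM in WT. Sidt2, a membrane protein of lysosomes, was higher in KO at 22.05 ± 4.52 FPKM, against 9.95 ± 0.629 FPKM in WT, and Abcb9, a peptide transporter, was lower at 15.0 ± 0.0674 FPKM, against 20.4 ± 1.46 FPKM in WT. Sorting and delivery genes had 5 of 26 higher and 2 lower (median -0.02). Igf2r, the mannose 6-phosphate receptor that carries hydrolases to lysosomes, was higher in KO at 13.9 ± 1.88 FPKM, against 9.08 ± 0.626 FPKM in WT. Gga3 and Hgs, of the same traffic, were called higher and Ap3b1, of the AP-3 adaptor, lower, and the call of Hgs ended with equal sums outside acinar and insulin genes (log2 difference 0.26, adjusted p = 0.141, against 0.33 as deposited). The count of lower membrane genes was 1 without KO replicate 2, KO replicate 3, WT replicate 1 or WT replicate 3, and 6 without KO replicate 1. Among sorting genes, 3 were higher without WT replicate 1 or WT replicate 3, 4 were lower without KO replicate 1, and 1 was lower without KO replicate 2 or any single WT library. Lower calls over all genes were 2837 without KO replicate 1 and 1100 to 1929 without any other single library, against 2289 with every library. Higher calls were 1381 without WT replicate 1 and 1397 without WT replicate 3, against 2368. With equal sums outside acinar and insulin genes, 4 membrane genes were higher and 1 lower, and 2 sorting genes were higher and 1 lower. Of all genes, 1200 were then higher and 1487 lower. With KO replicate 1 as the only KO library, or with no filter, 1 membrane gene was lower.

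Genes of TFEB and mTORC1 signalling at the lysosome had 7 of 22 higher and 2 lower (median -0.01). Tfe3, a factor of the TFEB family, was higher in KO at 27.1 ± 0.960 FPKM, against 18.1 ± 1.19 FPKM in WT (SD, n = 3 each). Lamtor3, of the Ragulator scaffold, was higher in KO at 38.4 ± 1.27 FPKM, against 23.6 ± 0.704 FPKM in WT. Fnip2, a folliculin partner, was called higher and Rragb, a Rag GTPase, lower. Autophagy genes had 8 of 26 higher and 3 lower (median 0.07). Ulk1, the kinase that starts autophagy, was higher in KO at 19.7 ± 1.37 FPKM, against 14.2 ± 0.855 FPKM in WT. Ulk2, its relative, was lower in KO at 6.47 ± 0.233 FPKM, against 8.25 ± 0.218 FPKM in WT, and was not called with KO replicate 1 as the only KO library (adjusted p = 0.0573). Wipi2 and Nbr1 were called higher, and both calls ended with equal sums outside acinar and insulin genes, at log2 differences of 0.28 for Wipi2 (adjusted p = 0.058) and 0.27 for Nbr1 (adjusted p = 0.0615), against 0.35 and 0.34 as deposited. That scaling left 2 autophagy genes higher and 1 lower, and 3 signalling genes higher and 2 lower. Autophagy genes numbered 4 higher and 0 lower with KO replicate 1 as the only KO library. Without KO replicate 1, 5 signalling genes were lower, and without WT replicate 1 or WT replicate 3, 1 was. Without WT replicate 1 and without WT replicate 3, 4 and 5 autophagy genes were higher. Without KO replicate 2, KO replicate 3, WT replicate 1 or WT replicate 3, 1 autophagy gene was lower. Over all genes, 2837 were lower without KO replicate 1 and 1100 to 1929 without any other single library, against 2289 with every library. Higher calls over all genes were 1381 and 1397 without WT replicates 1 and 3, against 2368.

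The list of cathepsin inhibitors had 2 of 7 higher and 0 lower (median 0.33). It also held Spink3, a trypsin inhibitor, at 97.7, 996 and 2416 FPKM in KO libraries, against 176, 104 and 151 FPKM in WT libraries. Cd74, likewise on the list, was at 244, 475 and 120 FPKM in KO libraries, against 184, 145 and 174 FPKM in WT libraries. Neither of these was called. Cstb, cystatin B, was at 63.2, 77.6 and 72.6 FPKM in KO libraries, against 59.4, 54.9 and 54.2 FPKM in WT libraries (log2 difference 0.33, limma adjusted p = 0.022). Serpinb6a was at 57.4, 64.1 and 74.0 FPKM in KO libraries, against 52.4, 50.7 and 53.1 FPKM in WT libraries (log2 difference 0.31, limma adjusted p = 0.035). Every KO library was above every WT library for both genes, with KO replicate 1 the nearest. Both lost the call with equal sums outside acinar and insulin genes (adjusted p = 0.115 and 0.0725, at log2 differences of 0.26 and 0.24). With KO replicate 1 as the only KO library the log2 differences were 0.17 and 0.14. Cstb also lost the call with a replicate block and without KO replicate 2, KO replicate 3, WT replicate 2 or WT replicate 3 (adjusted p of 0.051 to 0.0836). Serpinb6a lost it with no filter and without any single library other than KO replicate 1 (adjusted p of 0.0536 to 0.102). The count of higher genes in this list was 4 without KO replicate 1, and 1 without KO replicate 2 or WT replicate 1 or with no filter. It was 0 with equal sums outside acinar and insulin genes, and 0 without WT replicate 2 or WT replicate 3. Higher calls over all genes were 2890 without KO replicate 1, 1864 without KO replicate 2 and 1200 with that scaling. They were 1381, 1755 and 1397 without WT replicates 1, 2 and 3, against 2368 with every library. Acinar sums, which were highest in KO replicates 2 and 3, differed between the same libraries, and their part in these levels was not tested.

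**Figure D5:**
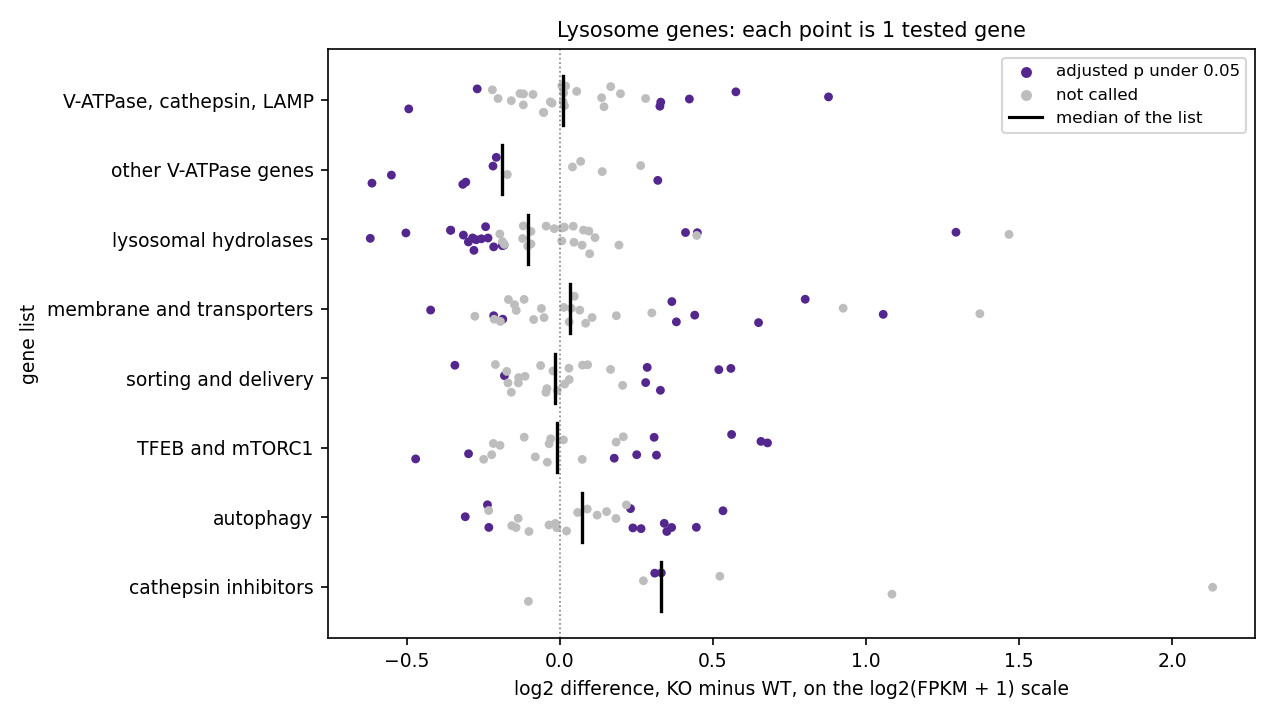
Each point is the log2 difference, KO minus WT, of 1 tested gene, with lists of lysosome genes as rows (purple, adjusted p under 0.05; grey, not called; black bar, median of the list). The 29 V-ATPase, cathepsin and LAMP genes centre at 0.01, other V-ATPase genes at -0.19 and hydrolases at -0.10.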

How the data were processed

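RNA sequencing libraries of islets from Ffar3 KO and WT male mice, 3 per group, were grouped by sample title and genotype label. Reads went through TopHat2 2.0.8b and Cuffdiff 2.1.1 on build mm10, per the submitters' processing notes. For the annotation, the strand setting and any scaling of libraries, the sources used here state nothing. Deposited values were taken as FPKM, since Cuffdiff writes that unit; the files do not name it. The values summed to 416935, 698280 and 1056344 in KO replicates 1, 2 and 3, against 429148 to 451899 in WT libraries. Yet their factors by median of ratios were 0.995 to 1.005, so the typical gene was already level between libraries as deposited. An FPKM value depends on how its library was scaled, and splits reads of overlapping genes by estimate.

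The deposited values were not rescaled. Genes averaging 1 FPKM or more were tested on log2(FPKM + 1) with limma 3.58.1 in R 4.3.3 (a two-sided test, with genotype as its single term and a trended prior), with Benjamini-Hochberg adjustment over all 11669 genes and a threshold of 0.05. The scale understates changes of low genes. The fit was tested on simulated data. An exact permutation test of 3 against 3 libraries cannot give p under 0.1, so none is used.

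Values in every library were given for genes called with a log2 difference of at least 0.3 in size, for the 3 of highest mean per group of genes, and for genes whose libraries differed by over 3-fold. Atp6v0e2, Atp6v0a2, the joined Atp6v0a4 row, Ctsf, Ctss, Ctsz, Tcirg1, Fdft1, Th1l and the rows under 1 FPKM were given so after their values were seen. The share of Atp6v1a and Atp6v1b2 in V1 and the shares of the e genes were not among the shares planned beforehand. Of each further list, up to 4 called genes of smallest p were named. The genes and lists were chosen with earlier results of these data known. Gene positions and shared exon bases came from GENCODE M21 on GRCm38, the same assembly as mm10. The alternatives were a pseudocount of 0.1, no filter, a filter at 5 FPKM, 3 other scalings between libraries (median of ratios, equal sums outside acinar and insulin genes, quantiles), a robust prior, array weights, a replicate block, each library left out, and KO replicate 1 as the only KO library, which assumes that it varies like the WT libraries.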

Additional observations from a re-analysis of the deposited data

How the results depend on the processing

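Of 461 pairs of a tested V-ATPase, cathepsin or LAMP gene and an alternative, 423 stayed on the same side of the threshold, 26 lost a call, 12 gained one and 0 reversed. Still, 0 of the 7 called genes kept the call under all 16 alternatives. With no filter, 3 were higher and 1 lower. With equal sums outside acinar and insulin genes, 1 was higher and 1 lower, with 14 higher and 12 lower among the further lysosome genes and 1200 and 1487 among all genes. With KO replicate 1 as the only KO library, 0 were lower, with 9 lower among the further lysosome genes and 1267 among all genes, and the share of Atp6v1a and Atp6v1b2 differed by 4.92 percentage points. Leaving out each library in turn gave 3 to 6 higher and 1 to 5 lower, 19 to 37 higher and 9 to 43 lower among the further lysosome genes, 1381 to 2890 higher and 1100 to 2837 lower among all genes, and a median log2 difference of the 29 genes of -0.06 to 0.03. The cause of these changes was not tested. Correlations of same-numbered KO and WT deviations were -0.21, -0.09 and 0.03, against -0.16 to 0.20 for different numbers. Deviations from a mean of 3 libraries constrain each other, so these values cannot show whether the replicate numbers pair the libraries. A fit with the replicate block gave 5 higher and 2 lower, 27 and 21 among the further lysosome genes, and 1988 and 1877 among all genes. With 3 libraries a group, total depth unknown and KO replicate 3 at 59.5% of the fragments behind an FPKM in WT replicate 1, changes in genes near 1 FPKM are the least certain.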
